A study of Mus musculus with 2 samples.

Results

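The myosin heavy chain family was followed through 10 genes, chosen by name: Myh1, Myh2, Myh3, Myh4, Myh6, Myh7, Myh7b, Myh8, Myh9 and Myh10. They are 10 of the 37074 gene names on the array, and all 28 non-control probes that carry these names were followed, out of 56605 distinct probes. The cells were myotubes of C2C12, an established line of mouse myoblasts whose fusion was induced with horse serum. The treated cells received exosomes of a KPC pancreatic cancer line (KPC-exo, 4 µg for 24 h). That line comes from tumour tissue of mice that carry the alleles KrasLSL-G12D/+ and Trp53LSL-R172H/+ with Pdx1-Cre, a Cre recombinase driven in the pancreas. The control cells received exosomes of MPDC, a mouse pancreatic ductal epithelial line, for 24 h, at a dose not given in the sources used here. Both groups are the same C2C12 line and neither is untreated, so a difference lies between 2 kinds of exosome. Each group had 1 array, so every difference below is between 2 arrays, has no replicate check and was given no test.

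Myosin heavy chain is the motor of the thick filament: its head binds actin and splits ATP, and its long tail packs with others into the filament. Skeletal muscle uses several heavy chain genes in turn, with embryonic and perinatal forms during development and slow or fast forms in adult fibres, while nonmuscle forms drive contraction of the cell cortex in most cells. Differentiating C2C12 cultures are known to switch on the embryonic and perinatal genes early and fast genes later.

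No heavy chain gene was 1.5-fold apart between the cultures at its brightest probe. Of the 10 genes, 9 had at least 1 probe well above background on both arrays, and their differences at the brightest probe ran from -0.22 for Myh9 to 0.35 for Myh7 on the log2 scale. A difference is always the log2 signal of the KPC-exo array minus that of the MPDC-exo array, each relative to the 75th percentile of its own array. Of the 16913 genes measured in the same way, 3.68% were at least 1.5-fold higher and 3.7% at least 1.5-fold lower. Both probes past 1.5-fold were second probes of a gene, and both lay upstream on the transcript: base 203 of Myh4 and base 2749 of Myh9 were lower with KPC-exo by 2.29-fold and 2.31-fold. All differences are relative to the bulk of each array. Centring on spike-in probes instead moves the median of all measured probes to 1.04. It puts 11 of the 13 measured member probes 1.5-fold higher, beside 90.4% of all measured probes. The low probes of Myh4 and Myh9 then lie at -0.20 and -0.21.

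The probe sequences are shown for the places where the family was hard to read. Probes are 60 bases long and the letters come from the deposited array files, whose positions are on the mouse build mm9. The first set lies near the 5′ end of the transcripts, within the first 500 bases, and each of its probes has at least 1 open reading frame over its whole length. Which part of the protein they code for was not looked up. Capitals mark the longest run of bases that a probe shares with another probe of this set.

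Myh2, base 264 (chr11:66986757-66986816, plus strand): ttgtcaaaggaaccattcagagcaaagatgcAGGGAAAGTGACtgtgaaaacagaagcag
Myh8, base 326 (chr11:67092501-67092560, plus strand): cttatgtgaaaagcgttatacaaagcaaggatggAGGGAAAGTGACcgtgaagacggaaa
Myh3, base 170 (chr11:66893627-66893686, plus strand): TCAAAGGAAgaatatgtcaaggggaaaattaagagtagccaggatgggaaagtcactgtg
Myh4, base 203 (chr11:67054219-67054278, plus strand): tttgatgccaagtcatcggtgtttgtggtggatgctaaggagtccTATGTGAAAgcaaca
Myh6, base 308 (chr14:55584132-55584191, minus strand): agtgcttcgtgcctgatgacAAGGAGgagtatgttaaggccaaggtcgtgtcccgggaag

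The probes of Myh2, Myh8 and Myh3 overlap at matching places of related genes, and none of the 5 is a copy of another. Those of Myh2 and Myh8 were identical at 42 of 57 overlapping bases, with a longest shared run of 12. Those of Myh2 and Myh3 were identical at 33 of 47. The 9 bases in capitals on Myh3 also occur in the Myh2 probe, but they lie outside those overlapping bases. For Myh4 and Myh6 the longest runs shared within the set were 9 and 6 bases, and how their places match was not analysed. The internal Myh9 probe with the low value on the KPC-exo array is given for comparison:

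Myh9, base 2749 (chr15:77606293-77606352, minus strand): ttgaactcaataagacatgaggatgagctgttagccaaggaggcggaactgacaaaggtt

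Toward the 3′ end, the probes of Myh1 and Myh8, genes of the same cluster, had the longest shared run of all. They share 19 bases around the last codons, in capitals, and this was the single pair with a run of at least 13 bases among 346 pairs of probes of different members. Myh1 is shown up to its stop codon.

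Myh1, base 5879 (chr11:67037938-67037997, plus strand): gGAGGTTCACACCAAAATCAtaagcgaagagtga
Myh8, base 5937 (chr11:67121925-67121984, plus strand): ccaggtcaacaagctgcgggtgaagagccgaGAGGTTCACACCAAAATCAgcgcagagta

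No members' probes were identical, and how far related transcripts bind each other's probes was not tested.

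Signal was found mainly at probes near the 3′ end. The array files give for each probe its transcript and the base at which it starts. Of 11 probes that start beyond base 5000 of a RefSeq transcript, 10 were well above background on both arrays, the exception being that of Myh6. Of 5 probes within the first 500 bases, 1 was well above background on both arrays, 1 on the MPDC-exo array only and 3 on neither. A single internal RefSeq probe, that of Myh9, was well above background on both. The other 11 probes belong to other transcript models of these genes, and of these 1 was well above background on both arrays, 1 on the KPC-exo array only and 9 on neither. In all, 13 of the 28 probes were measured on both arrays. Where a member's 3′ probe was measured and it had another RefSeq probe at least 4000 bases upstream, the upstream probe was measured too in 2 of 5 genes, against 59.7% of 477 such genes over the array. The level of a probe depends on its own binding and labelling, so levels are not compared between genes or between probes of a gene.

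**Figure D1:**
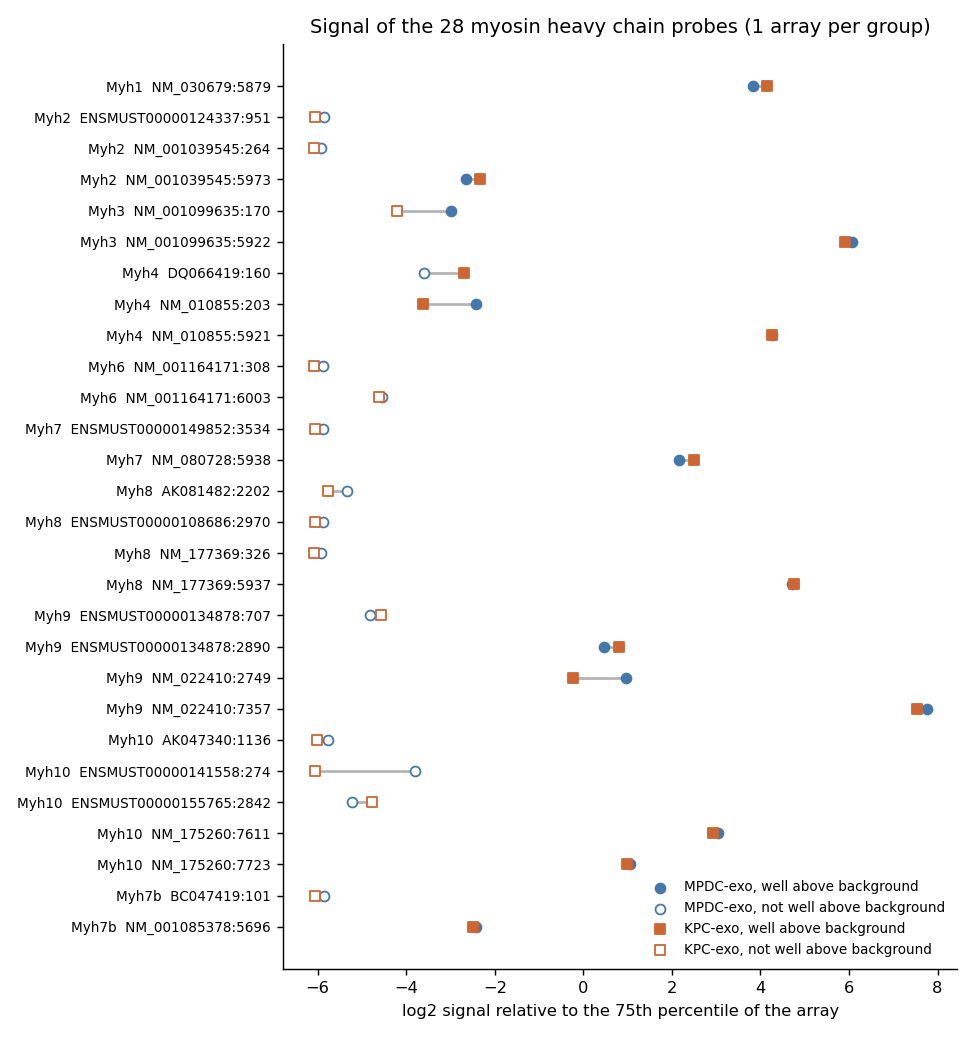
Log2 signal of each of the 28 probes for MPDC-exo and KPC-exo (1 symbol each, as in the key), relative to the 75th percentile of each array, with open symbols where the probe was not well above background; rows give the gene, the transcript and the base at which the probe starts. Filled pairs lie close together except at Myh4 base 203 and Myh9 base 2749, and positions along the axis are not comparable between rows.

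The developmental forms differed little at the 3′ end. Myh3, the embryonic heavy chain, had a signal of 25699 units with MPDC-exo and 38679 units with KPC-exo at base 5922 (chr11:66915724-66915783). The 75th percentile of the arrays was 380 and 639 units, so the relative log2 signals were 6.08 and 5.92, a difference of -0.16. The scanner software attaches an error to every spot, which for bright spots is a fixed share of the signal set in its protocol, and for this difference it came to 0.20. The arrays were not apart beyond it. Myh8, the perinatal heavy chain, had relative log2 signals of 4.71 with MPDC-exo and 4.77 with KPC-exo at base 5937, a difference of 0.05 with an error of 0.20. For both genes the unscaled signal was higher on the KPC-exo array, as was the 75th percentile of all probes, and the relative signal was nearly level.

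Upstream, Myh3 was seen on 1 array only. Its probe at base 170 had 47.5 units with MPDC-exo, well above background, and 34.6 units with KPC-exo, not well above it. It was therefore lower with KPC-exo by at least 1.69-fold, taking as the dim value the lowest signal well above background there, 47.3 units. This bound sets a bright spot against the detection limit and makes no allowance for spot error. The upstream probe of Myh8, at base 326, was too dim on both arrays, with 6.25 and 9.41 units.

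The adult fast forms had differences from near 0 to 0.31 at their 3′ probes. Myh2, the heavy chain of type IIa fibres, had relative log2 signals of -2.64 with MPDC-exo and -2.33 with KPC-exo at base 5973 (chr11:67010910-67010969). The difference was 0.31 with an error of 0.28, and with normexp background correction it was 0.02. Myh1, the type IIx form, had 3.84 and 4.14 at base 5879, a difference of 0.30 with an error of 0.20, and was measured by this probe alone. Myh4, the type IIb form, had 4.25 and 4.26 at base 5921 (chr11:67073834-67073893), a difference of 0.01 with an error of 0.20. Myh1 and Myh2 thus lay above the median of all measured genes, 0.06, by more than the scanner error of 0.20 for Myh1 and by less than its 0.28 for Myh2. The other probes of Myh2, at base 264 and at base 951 of another transcript model, were not well above background in either culture.

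The 2 measured probes of Myh4 did not agree. Its probe at base 203 had 71.2 units with MPDC-exo and 52.2 units with KPC-exo, or relative log2 signals of -2.42 and -3.61. The difference of -1.19 was 3.37 times its scanner error of 0.35. Another probe spans 1816 bases of the genome (chr11:67052302-67054117) and so crosses a splice junction, at base 160 of the transcript model DQ066419. It had 31.6 units for MPDC-exo, not well above background, and 98.9 units for KPC-exo, well above it. The signals of this probe were 1.87-fold apart, higher with KPC-exo, taken against the dim spot's own signal and with a scanner error of 0.38 on the log2 scale. Hence, of the 2 probes of Myh4 measured on both arrays, 1 was level and 1 lay lower. The junction probe was seen only on the array where it was high, so its direction is not counted with them. It and the probe at base 203 were dim: the lowest signal that counted as well above background was 31.2 units for MPDC-exo and 47.3 units for KPC-exo.

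Of the slow and cardiac forms, Myh7 had the highest difference of the 13 measured probes. Myh7, the heavy chain of slow fibres and of the heart ventricle, had 1691 units with MPDC-exo and 3607 units with KPC-exo at base 5938 (chr14:55589581-55589640, minus strand). Its relative log2 signals were 2.15 and 2.50, a difference of 0.35, or 1.27-fold, with an error of 0.20. Its second probe, on another transcript model, was at the surrogate level that the scanner software writes for spots too dim to measure. Myh6, the cardiac alpha form that neighbours Myh7, was the only member with no measured probe: at base 6003 it had 16.2 and 26.2 units and at base 308 it had 6.48 and 9.46 units, none well above background. Myh7b, a slow form of specialised muscles, had relative log2 signals of -2.42 and -2.48 at base 5696 (chr2:155459115-155459174), a difference of -0.07 with an error of 0.27. The other probe of Myh7b was at the surrogate level too. The microRNA genes that lie in introns of Myh6, Myh7 and Myh7b (Mir208a, Mir208b and Mir499) were not found by name among the probes and were not analysed here.

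The nonmuscle forms were less than 1.5-fold apart at the 3′ end, and the probes of Myh9 differed among themselves. Myh9, the nonmuscle IIA heavy chain, had 82340 units with MPDC-exo and 118567 units with KPC-exo at base 7357 (chr15:77591033-77591092, minus strand), or relative log2 signals of 7.76 and 7.54. The difference was -0.22 with an error of 0.20. At base 2749 of the same transcript the unscaled signal itself was lower with KPC-exo, 744 units in the control and 540 units in the treated culture. The relative log2 signals there were 0.97 and -0.24, a difference of -1.21 that was 5.88 times its scanner error of 0.21. Another probe, at base 2890 of the transcript model ENSMUST00000134878 near the other end of the gene (chr15:77636006-77636065), had 529 units with MPDC-exo and 1113 units with KPC-exo, a difference of 0.33 with an error of 0.21. Its local background was marked as irregular by the scanner software on 1 array. The remaining probe of Myh9 was not well above background, with 13.4 and 26.9 units. Myh10, the nonmuscle IIB heavy chain, had differences of -0.10 at base 7611 and -0.07 at base 7723, with errors of 0.20 each, at probes that lie close together at its 3′ end. Its other 3 probes, all on other transcript models, were not well above background, and the highest of their signals was 27.1 units.

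**Figure D2:**
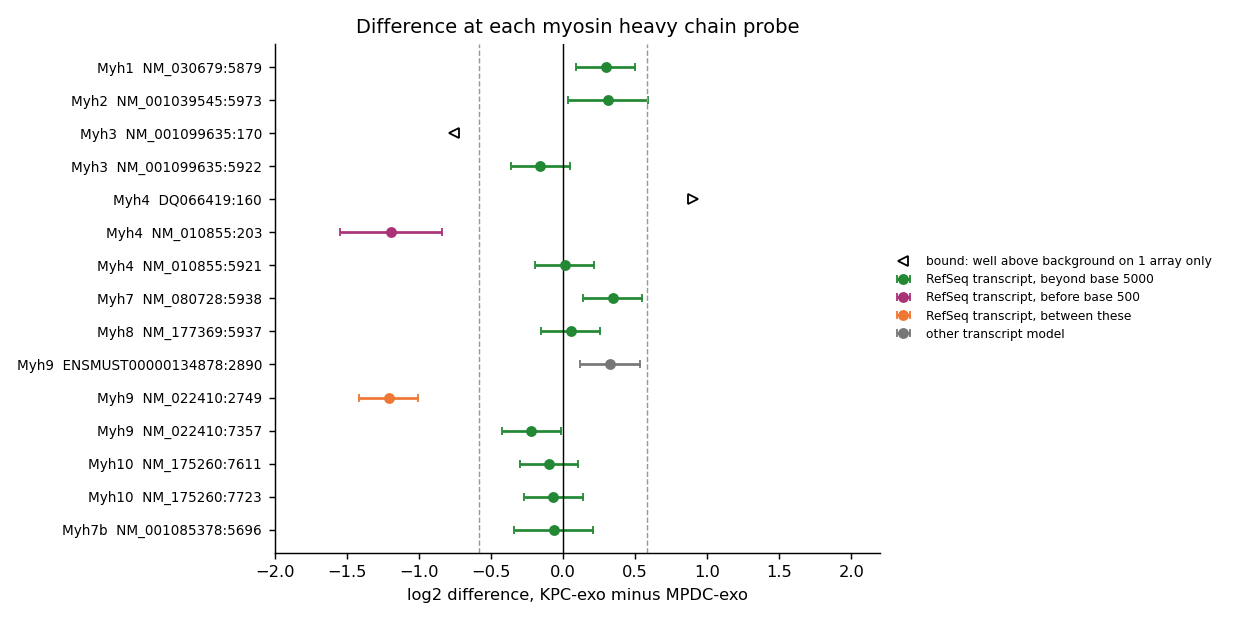
Log2 difference (KPC-exo minus MPDC-exo) at the 13 probes measured on both arrays, with bars for the scanner software's error of the difference, and at 2 probes well above background on 1 array only, drawn as triangles at the value against the dim array's limit (Myh3) or own signal (Myh4). Dashed lines mark 1.5-fold; 2 measured probes lie beyond them, at -1.19 (Myh4) and -1.21 (Myh9), and 0 measured probes lie beyond the upper line.

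As a set, the 13 measured probes had a median log2 difference of -0.07, beside 0.04 over the 24962 probes measured on both arrays. There were 6 above 0 and 7 below, and under normexp the median was 0.01. The number at least 1.5-fold lower was 2, where 5.41% of all measured probes were that low, and 0 were 1.5-fold higher, where 4.65% of all measured probes were. The filter on dim probes keeps a probe in view only if it is bright on both arrays, so these counts do not describe all 28 probes.

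How far apart the probes of a gene lay was set beside all other genes. For Myh4 the 2 measured probes were 1.21 apart in log2 difference, while the median over 4024 genes with 2 measured probes was 0.27, and 89 of them (2.21%) were at least as far apart. For Myh9 the 3 measured probes spanned 1.54, with a median of 0.50 over 1332 genes with 3 measured probes, of which 33 (2.48%) spanned at least as much. For Myh10 the 2 probes were 0.03 apart, closer than in most genes: 93.9% were at least as far apart. The pooled SD between probes of a gene was 0.36 over 5767 genes. The error within an array was smaller, with a median SD of 0.03 on either array over 292 probes that were spotted 10 times.

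**Figure D3:**
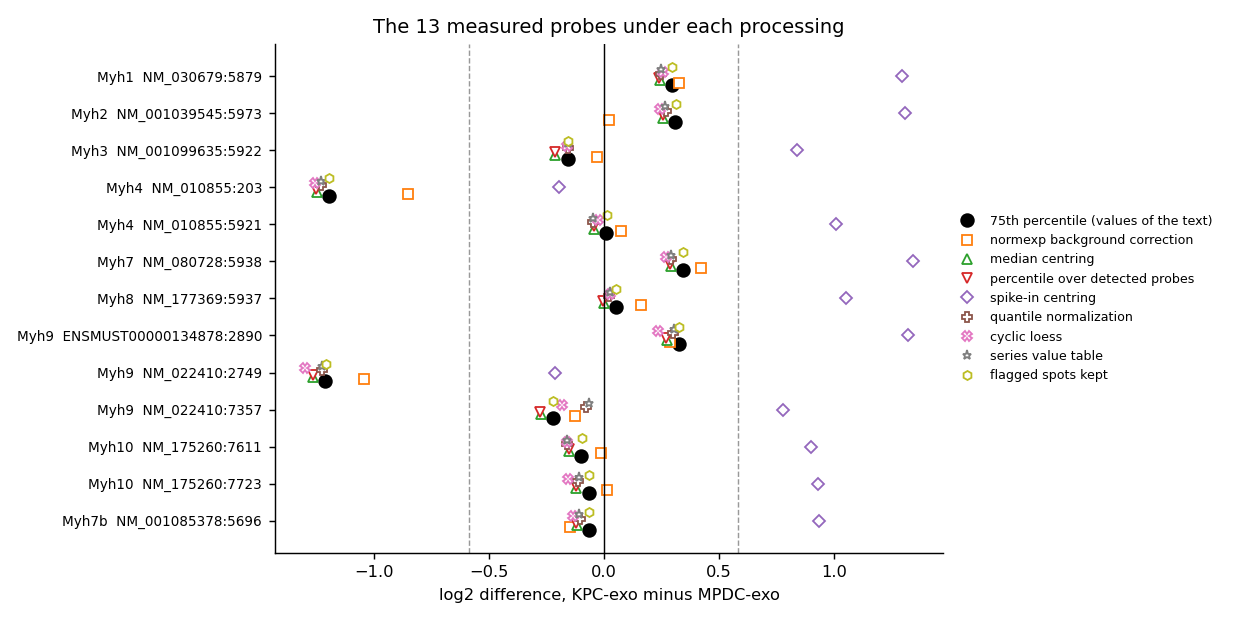
Log2 difference (KPC-exo minus MPDC-exo) of the 13 measured probes under each processing (1 symbol each), with dashed lines at 1.5-fold. Apart from spike-in centring, which moves all 13 to the right by about 1, the probes of Myh4 at base 203 (-1.26 to -0.85) and Myh9 at base 2749 (-1.30 to -1.04) are the ones beyond a dashed line.

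Myh4 and Myh9 are the members with 2 measured probes far apart on 1 RefSeq transcript. Upstream minus downstream, their log2 differences were -1.21 in Myh4 (base 203 against base 5921) and -0.99 in Myh9 (base 2749 against base 7357). Probes on other transcript models are not counted with these values. The junction probe of Myh4, further 5′ in the genome than base 203, was seen on the KPC-exo array only, the one where it was high. The Myh9 probe at base 2890 of its model had 0.33 and lies on the 5′ side of base 2749 in the genome. Its place relative to the RefSeq transcript was not looked up. The upstream probe of Myh3 was also seen on 1 array only, the one where it was high, so its bound is a description and is not counted either. A comparison between probes of 1 gene does not depend on how the arrays are centred. It was chosen after these values were seen and was then made over all genes with 2 measured probes at least 1000 bases apart on 1 RefSeq transcript.

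**Figure D4:**
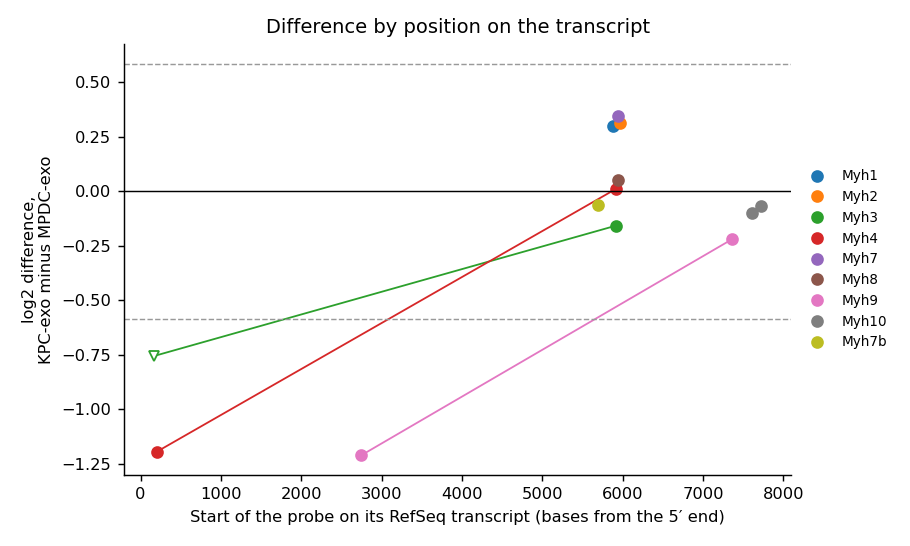
Log2 difference (KPC-exo minus MPDC-exo) against the base at which the probe starts on its RefSeq transcript, for the members' probes well above background on at least 1 array, with lines joining probes of a gene and the open triangle marking a bound. The 10 probes beyond base 5000 lie between -0.22 and 0.35, and the upstream probes of Myh4 and Myh9 lie at -1.19 and -1.21; the triangle of Myh3, at -0.76, had to lie low since that probe was seen on the MPDC-exo array only.

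Such a shift was present across the array. Over 1861 genes the upstream probe lay below the downstream probe in 69.4%, and the median of upstream minus downstream was -0.24, with quartiles of -0.58 and 0.07. It was at or below -1 in 6.18% of genes and at or above 1 in 0.806%. The median was -0.25, -0.23 and -0.25 for pairs 1000 to 2000 bases, 2000 to 4000 bases and at least 4000 bases apart. Where the upstream probe was among the dimmest 25% of measured probes it was -0.37 over 785 genes, and otherwise -0.18 over 1076. The upstream probe of Myh4 was that dim and that of Myh9 was not. Myh4 and Myh9 lay beyond most genes but not apart from them: of 307 pairs at least 4000 bases apart, 14 (4.56%) were at or below the value of Myh4 and 34 (11.1%) at or below that of Myh9. Over all measured probes the median difference was 0.02 for the dimmest 25% and 0.03 for the brightest, and 669 of the 6241 dimmest were at least 1.5-fold lower, beside 1350 of all 24962. The part of dim signal in the upstream values was not tested. RNA integrity is not given per sample in the sources used here, and its part in the upstream values was not tested.

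**Figure D5:**
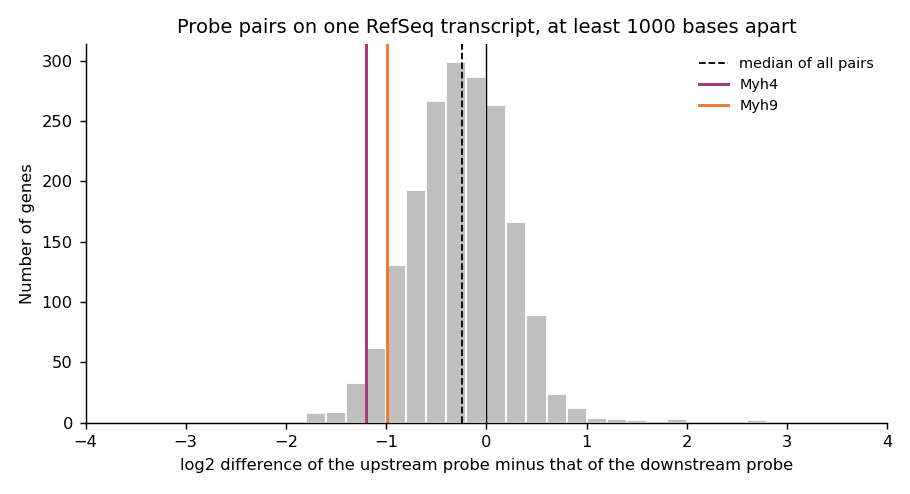
Number of genes by the log2 difference of the upstream probe minus that of the downstream probe, for 1861 genes with 2 measured probes on 1 RefSeq transcript at least 1000 bases apart. The whole distribution is centred below 0, with its median at -0.24 (dashed), and the values of Myh4 (-1.21) and Myh9 (-0.99) lie in its lower tail.

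Most measured genes that work with the heavy chains were less than 1.5-fold apart. These lists were chosen by function, gene by gene at the brightest measured probe, and are set beside the median of 0.06 and the 3.68% higher and 3.7% lower of all measured genes. Of 4 other heavy chain genes, Myh13, the extraocular form of the fast cluster, had a difference of 0.04 and the nonmuscle form Myh14 had -0.36. Myh15 passed the background filter with MPDC-exo only, and against the detection limit with KPC-exo it was lower there by at least 1.58-fold. This bound makes no allowance for spot error. Myh15 was seen only where it was high, so its direction is a description and is not counted as a decrease. The smooth muscle gene Myh11 was not well above background at any of its probes. Of 13 light chain genes 10 were measured, with a median of 0.20 and 0 members 1.5-fold apart at the brightest probe. The dimmer measured probe of Myl6b had 0.67 and that of Myl12b had -0.64. Myl2, the slow regulatory light chain, had 0.51, and the light chain genes Myl6b and Myl9 had 0.41 and 0.33.

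Of the thick filament partners, Trim54, a ubiquitin ligase bound to the sarcomere, had 0.36, and the M-band gene Myom2 had -0.25. Genes for myosin folding and myosin light chain kinases had a median of -0.05 over 13 members, with 0 apart in either direction at the brightest probe. Their dimmer measured probes past 1.5-fold were all lower: Rock2 had -1.03, Smyd1 -0.68, Unc45a -0.67 and Smyd2 -0.59. Hsp90aa1 and Hsp90ab1, chaperones that fold the myosin head, had -0.46 and -0.27, and the skeletal light chain kinase gene Mylk2 had 0.28. The other measured probe of Hsp90aa1 had -0.19.

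The fibre type programmes were measured through their other genes. Of 11 fast fibre genes, all measured, 0 were 1.5-fold apart and the median was 0.19. Pvalb, the calcium buffer parvalbumin, had -0.55, while Myoz1, close to the detection limit, had 0.35. The fast troponin T gene Tnnt3 had 0.34 at its brightest probe, and its 3 measured probes ran from 0.04 to 0.34. Of 10 slow fibre genes, all measured, 1 was higher and 0 lower, with a median of 0.22. The higher member was Mb, which encodes myoglobin, with a difference of 0.60, followed by Myl2 with 0.51 and Myoz2 with 0.42. Above the median of all genes lay 6 of the 11 fast and 7 of the 10 slow genes. Fibre type regulators had a median of 0.09 over 16 members, with 0 apart in either direction at the brightest probe. The transcription factor gene Mef2c had -0.42 and its cofactor Vgll2 had 0.42. The deacetylase gene Hdac4 had 0.41, and its 3 measured probes ran from -0.15 to 0.41. The other measured probes of the list past 1.5-fold were lower: Nfix had -1.17 and Tead1 -0.78.

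The cultures carried the markers of myotubes. Of 9 myotube marker genes on the array, all were well above background on both arrays, with a median difference of -0.02, and the summed relative signal of the list (on a linear scale, the brightest probe of each gene) was 520 with MPDC-exo and 534 with KPC-exo. Of 5 myoblast markers 4 were well above background, with sums of 71.5 and 73.0. Of 7 cardiac markers 5 were (Nkx2-5, Gata4, Tnni3, Nppa and Nppb), with sums of 3.32 and 4.13. Neither Ryr2 nor Tbx5 was, nor was the member gene Myh6, which is not on that list. Of 8 markers of pancreatic duct epithelium, the cell type of the control exosomes, 2 were well above background (Krt19 and Sox9), with sums of 1.61 and 1.54, and Epcam, Cdh1, Krt8 and Krt18 were not. Smooth muscle markers, which myoblasts also express, had 4 of 5 well above background and sums of 508 and 405. The sums were mostly the signal of Acta2, which had -0.37 at its brightest probe. Its 3 measured probes ran from -0.55 to 0.20. Cnn1 was lower with KPC-exo by 1.75-fold. Of 6 fibroblast markers all 6 were well above background, with sums of 590 and 568. Macrophage markers were well above background in 5 of 6, with sums of 10.2 and 11.2, where any 1 probe of a gene was enough. Among them Ptprc and Lyz2 passed only at a probe of another transcript model, and their RefSeq probes were not well above background. Cd68 had a difference of 0.63 and Csf1r of -0.87, with -0.33 at the other probe of Csf1r. Adipocyte markers were well above background in 2 of 5, with 0.506 and 0.573, and endothelial markers in 1 of 5 with MPDC-exo and 2 of 5 with KPC-exo, with sums of 0.435 and 0.449. In bulk RNA, fewer myotubes and less myosin mRNA per myotube cannot be told apart.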

How the data were processed

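Total RNA of C2C12 myotubes was measured in 2 samples, 1 per group, on 1-colour Agilent arrays of 62976 features. Per the submitters' processing notes and the file headers, the scans were quantified in Agilent Feature Extraction 10.7.1.1. Each deposited file gives linear intensity per spot, detrended and background-subtracted within its array but not normalized between arrays. The authors' deposited value table holds log2 values, used as 1 alternative; no source here says how they were made.

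For this report, flagged spots (non-uniform or population outliers, 102 and 166, none of a member) were dropped, processed signals were put on the log2 scale, and the 75th percentile of the array was subtracted. A probe was measured where it was well above background on both arrays. For a probe seen on 1 array, the dim value was the higher of the lowest such signal on the dim array and the probe's own signal. No spot was saturated. With so few arrays, precision is low: the error printed beside a difference is that of the scanner software, combined over both arrays, and leaves out variation between cultures. No test was run, as each group had 1 sample. Alternatives were normexp with an offset of 50 (limma 3.58.1 in R 4.3.3), centring on the median, on probes detected on both arrays or on 7 spike-in probes, quantile and loess normalization, the value table, flagged spots kept, other filters, a 2-fold threshold and the mean over probes. Python 3.11.15, numpy 2.4.6, pandas 2.3.3 and matplotlib 3.10.9 were used. The calculation was tested on simulated data.

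The members and gene lists were chosen with earlier results of these data known. Every member probe is accounted for, and up to 3 genes per list with the largest difference are named; marker genes were named after their values were seen. Names of list genes follow RefSeq (GRCm38.p6), which matched 32994 probes by accession. Positions are those of the files (mm9), and whether a probe lies in a UTR was not analysed here. The counts for thick filament partners and 1 gene of that list are not reported here.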

Additional observations from a re-analysis of the deposited data

How the results depend on the processing

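Each culture had 1 array, so the spread between cultures is unknown, and dim probes limit the upstream comparison. Centring on the spike-in probes moved every value up by about 1 on the log2 scale (the median of all measured probes became 1.04). With it the members' median was 0.93, and 11 of 13 member probes were 1.5-fold higher and 0 lower. Over all measured probes 90.4% were 1.5-fold higher and 0.30% lower. At their brightest probe 9 member genes were apart, where the median over all measured genes was 1.06. Directions are therefore relative to the bulk of each array. The probes of Myh4 at base 203 and Myh9 at base 2749 stayed below 0, at -0.20 and -0.21. With no filter on dim probes, 1 of the 28 member probes was 1.5-fold higher and 4 lower, beside 8.39% and 7.97% of all probes. Those added were not well above background on both arrays. With the stricter filter Myh4 at base 203 dropped out. Then 1 of 10 member probes was lower, beside 3.64% of all probes kept. With the mean over probes 1 gene was apart, Myh4, at -0.59. In the other alternatives run, both low probes remained past 1.5-fold, from -1.26 to -0.85 for Myh4 and from -1.30 to -1.04 for Myh9. The median of upstream minus downstream over 1861 genes ran from -0.28 (normexp) to -0.24. No paired analysis was possible because each group had 1 sample.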
